A study of Mus musculus with 14 samples.

Results

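The splicing genes described here are the members of 8 gene families whose symbols begin with Snrp, Lsm, Sf3a or Sf3b, U2af, Prpf, Srsf, Tra2 or Hnrnp. Genes entered by symbol alone, though the families were chosen with earlier results of these data known. Of the 10210 genes listed in the deposited natural killer (NK) cell count table, 77 matched. Of these, 72 had enough reads to enter the test, which covered 8471 genes. The other 5 had too few reads, and no difference between groups is reported for them. Genes with low counts throughout were already missing from the table, where the highest count of any gene was never below 6.

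NK cells, cytotoxic innate lymphocytes, came from 8-week-old BALB/c mice in 3 groups. The first group was spleens of healthy mice (n = 3). The second was spleens of mice carrying 4T1 tumours (n = 4), and the third was the 4T1 tumours themselves (n = 4). 4T1 is a mouse mammary carcinoma line, and 100000 GFP-labelled cells had been placed in the lower left mammary fat pad of females. After magnetic enrichment, CD45+ NKp46+ cells were sorted that lacked GFP, EPCAM, CD3, CD31 and CD14. Tumours were digested with collagenase and DNase for 20 min at 37 °C, whereas spleens were crushed and treated with red cell lysis buffer for 5 min on ice. Tissue and handling therefore differ together between tumour and spleen and cannot be told apart. The labels number the samples as repetitions without naming the animal behind each, so p-values measure the spread between these samples.

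Pre-mRNA splicing removes introns by means of the spliceosome, which is built from small nuclear ribonucleoproteins (snRNPs). Sm proteins and the related LSm proteins form rings around the snRNAs, SF3A and SF3B hold the U2 snRNP on the branch site, and U2AF recognises the end of the intron. SR proteins and heterogeneous nuclear ribonucleoproteins (hnRNPs) bind the transcript and steer the choice of splice sites. Lsm10 and Lsm11 have another task: they replace a pair of Sm proteins in the U7 snRNP, which cuts the ends of replication-dependent histone pre-mRNAs. Activated lymphocytes are known to change both splicing and the supply of splicing factors.

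The upstream sequences of 4 genes are shown because Lsm10 and Lsm11 form the U7 pair that fell together, and Srsf2 and Hnrnpa1 rose in the same tumour comparisons. Each runs 5′ to 3′ from 250 to 51 bases before the RefSeq start of the gene (build GRCm38.p6). RefSeq promoters matched 66 of the 77 genes. Capitals mark a CCAAT box (CCAAT) or a GC box (GGGCGG) on either strand.

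Lsm10, chr4:126096403-126096602, plus strand: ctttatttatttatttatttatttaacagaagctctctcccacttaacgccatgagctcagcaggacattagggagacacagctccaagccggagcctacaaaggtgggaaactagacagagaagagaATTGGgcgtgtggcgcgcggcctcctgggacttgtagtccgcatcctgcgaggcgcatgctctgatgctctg

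Lsm11, chr11:45944986-45945185, minus strand: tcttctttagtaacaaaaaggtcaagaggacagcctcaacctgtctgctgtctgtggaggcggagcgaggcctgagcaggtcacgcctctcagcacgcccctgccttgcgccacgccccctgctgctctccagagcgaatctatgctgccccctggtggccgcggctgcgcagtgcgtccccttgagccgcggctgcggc

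Srsf2, chr11:116853145-116853344, minus strand: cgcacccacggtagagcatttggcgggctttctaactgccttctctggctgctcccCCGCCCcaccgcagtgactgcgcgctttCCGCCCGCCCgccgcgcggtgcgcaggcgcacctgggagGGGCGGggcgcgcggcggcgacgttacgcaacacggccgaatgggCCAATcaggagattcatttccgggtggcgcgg

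Hnrnpa1, chr15:103240147-103240346, plus strand: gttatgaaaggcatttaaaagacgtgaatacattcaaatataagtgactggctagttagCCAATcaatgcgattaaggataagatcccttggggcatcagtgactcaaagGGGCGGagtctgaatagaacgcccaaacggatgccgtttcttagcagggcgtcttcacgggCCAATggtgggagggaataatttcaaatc

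The 2 genes shown that rose each held a CCAAT box and a GC box in this window. Whether the boxes go with the direction of change was not tested, and the other called genes are not shown. Hnrnpa1 had 2 CCAAT boxes and 1 GC box, and Srsf2 had 1 CCAAT box and 4 GC boxes, of which 2 overlap. Lsm10 had 1 CCAAT box and no GC box, and Lsm11 had neither. Among all 32851 RefSeq promoter windows of this length, 28.4% held a CCAAT box and 24.6% a GC box, and among the 85 windows of the members 37.6% and 51.8% did. The E-box CACGTG (4.34% of all windows) and the ETS core CCGGAAG (3.98%) were searched on both strands. So were the cyclic AMP element TGACGTCA (0.828%) and the TATA box TATAAA (9.14%). These letters were in none of the 4 windows. The windows leave out the bases next to the RefSeq start, and those bases were not searched. Whether these promoters hold a TATA box there therefore cannot be decided from this search. In GENCODE M21 (GRCm38), Lsm10 spans chr4:126096623-126098584 and Lsm11 spans chr11:45928269-45944935, and both are protein-coding genes.

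Library totals ran from 559688 to 1966963 counts, so 3 counts, the limit that a count of 0 allows, corresponded to between 1.54 and 4.62 CPM, the read count rescaled by library size, depending on the library. The splicing genes took 0.729% to 0.869% of the counts of a library. The spleen libraries fell into 2 sets along the second principal component, which held 15.3% of the variance. Healthy replicate 1 and tumour-bearing replicates 1 and 2 lay on one side, and the other 4 spleen libraries lay on the other. The labels give no batch that matches this split. In the tumour libraries, the summed level of 20 immediate early and heat shock genes was 9811 to 12221 CPM, against 3838 to 4729 in tumour-bearing spleens and 2241 to 2859 in healthy spleens. Neutrophil markers, of which 4 of 8 were listed, summed to 60.8 to 158 CPM in tumours and at most 11.2 CPM in spleens. Macrophage markers (8 of 12 listed) reached 44.7 to 259 CPM in tumours and at most 28.8 CPM in spleens, and epithelial markers (2 of 7 listed) 27.7 to 54.9 CPM and at most 3.08 CPM. The endothelial marker listed (1 of 5) had 139 to 202 CPM in tumours and at most 94.2 CPM in spleens. The dendritic cell marker listed (1 of 6) had 12.4 to 23.0 CPM and at most 5.34 CPM. Sums of fibroblast, T cell and B cell markers overlapped between tumours and spleens. The 12 NK markers were all listed and summed to 22145 to 27080 CPM in tumours, below the 28891 to 32314 CPM of the spleens, and 6 of them were called lower and 1 higher against tumour-bearing spleen. The part of handling, of other cells, of the NK marker level and of the spleen split in the results below was not tested, except where a value within the split is given. In bulk samples, fewer cells of a type and less RNA per cell cannot be told apart.

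Between tumour and tumour-bearing spleen, 6 splicing genes rose and 8 fell, and the largest falls were those of the LSm genes Lsm11, Lsm7 and Lsm10. The genes that rose were Hnrnpa1, Srsf6, Srsf2, Hnrnpk, Srsf5 and Srsf11, all of them SR proteins or hnRNPs. Those that fell were Lsm11, Lsm7, Lsm10, Srsf7, Lsm2, Sf3a2, Prpf3 and Snrpd3. The test was edgeR's quasi-likelihood test with Benjamini-Hochberg adjustment over all genes tested, and a gene was called at an adjusted p under 0.05. The called members made up 19.4% of the 72, below the 29.0% called among all genes tested (15.8% higher and 13.2% lower). The median log2 fold change was 0.10 for the members and 0.00 for all genes. The groups did not overlap for 10 members that were higher and 7 that were lower, where 16.5% and 13.3% of all genes behaved this way. At an unadjusted p under 0.05 there were 22 members, or 30.6%, against 39.4% of all genes. The count of genes that fell was 3 without tumour replicate 1, 4 without tumour replicate 2 or 4, and 5 without tumour-bearing replicate 3 or 4. The share of all genes called in these fits is not given here, so these counts are not a result about splicing genes. Upper-quartile scaling gave 4 higher and 9 lower (12.9% and 18.1% of all genes), and an offset for GC content and length gave 6 higher and 9 lower (15.6% and 16.1%).

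Between tumour and healthy spleen, 10 members rose and 5 fell, together 20.8% of the 72 against 30.5% of all genes (16.5% higher and 14.0% lower). Both comparisons use the same 4 tumour libraries, so they are not independent. The genes that rose were Hnrnpa1, Srsf2, Hnrnpk, Snrpa1, Hnrnpab, Prpf38a, Srsf5, Snrpd1, Srsf11 and Snrpc, and those that fell were Lsm11, Srsf7, Lsm7, Lsm10 and Sf3a2. The members had a median log2 fold change of 0.19 and all genes of 0.02. The groups did not overlap for 10 members that were higher and 5 that were lower (18.5% and 16.3% of all genes), and 20 members, or 27.8%, had an unadjusted p under 0.05 (41.0% of all genes). The count of genes that rose was 6 without healthy replicate 3 and 5 without tumour replicate 1. The count that fell was 2 without healthy replicate 2, tumour replicate 1 or tumour replicate 4, and 3 without tumour replicate 2. These counts also stand without the share of all genes called in the same fits, so they are not a result about splicing genes. Upper-quartile scaling gave 6 higher and 7 lower (13.6% and 18.5% of all genes). The same offset for GC and length gave 5 higher and 10 lower, where 16.7% and 18.5% of all genes were called. Of the 72, 5 were called higher in both tumour comparisons (12.7% of all genes) and 5 lower in both (9.47%).

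**Figure D1:**
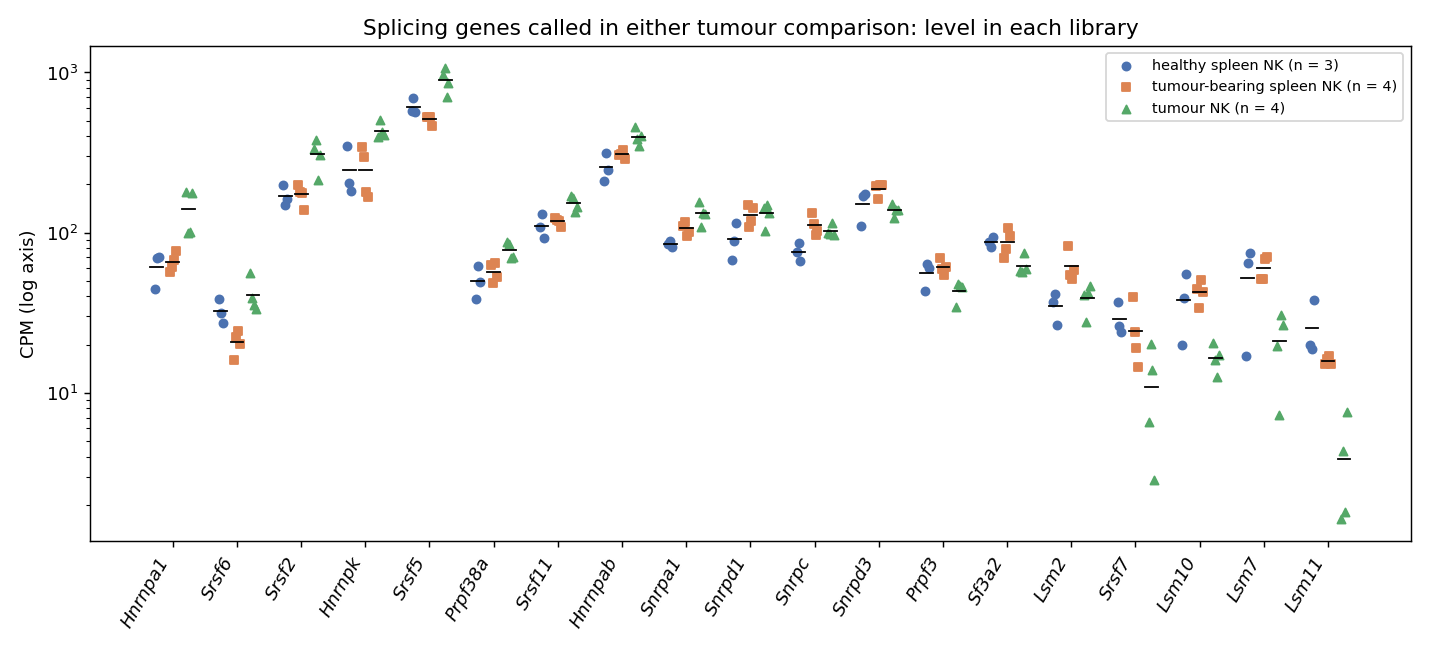
Level in each library (CPM, log axis) of the 19 splicing genes called in either tumour comparison, ordered by log2 fold change against tumour-bearing spleen; each point is a library and each bar a group mean. Lsm10 and Lsm11 sit lower in tumours, at 12.6 to 20.5 CPM and 1.64 to 7.61 CPM, and Srsf2 sits higher, at 215 to 380 CPM.

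Lsm11, the U7-specific protein that binds the histone cleavage machinery, had the largest fall of any member. Its levels were 20.0, 18.7 and 38.0 CPM in healthy spleens, 15.2, 16.2, 17.0 and 15.2 CPM in tumour-bearing spleens and 1.64, 4.35, 1.80 and 7.61 CPM in tumours. All 4 tumour libraries lay below every spleen library, and they rested on 2, 3, 3 and 8 counts, at or near the limit that a count of 0 allows. This gave a log2 fold change of -2.15 ± 0.41 (SE) against tumour-bearing spleen (edgeR adjusted p = 0.000501) and -2.83 ± 0.42 against healthy spleen (adjusted p = 3.14e-05). Pooled counts gave levels 4.63-fold lower (exact 95% interval 2.72 to 8.40, for counting error only) and 7.29-fold lower (4.26 to 13.3).

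Lsm10, its partner in the U7 ring, had 20.0, 39.1 and 55.3 CPM in healthy spleens, 44.2, 34.1, 50.4 and 42.7 CPM in tumour-bearing spleens and 20.5, 15.9, 12.6 and 17.1 CPM in tumours. The tumour libraries were below all tumour-bearing spleens, and they overlapped healthy spleens only through healthy replicate 1, the shallowest library. Its fitted log2 fold change was -1.38 ± 0.26 (edgeR adjusted p = 0.000433) against tumour-bearing and -1.27 ± 0.28 (adjusted p = 0.00192) against healthy spleen. The calls of Lsm10 and Lsm11 held in both comparisons in each of the alternative fits run, 19 and 16 in number.

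Lsm7 belongs to the ring that binds U6 snRNA and, with Lsm1 in place of Lsm8, to the ring that promotes decapping of mRNA. Its levels were 17.0, 64.2 and 74.3 CPM in healthy spleens, 51.1, 51.4, 69.0 and 70.2 CPM in tumour-bearing spleens and 19.7, 7.25, 30.7 and 26.6 CPM in tumours. Healthy replicate 1 lay among the tumour libraries and the other 6 spleen libraries lay above them. On the log2 scale the fold change was -1.43 ± 0.39 (edgeR adjusted p = 0.0163) against tumour-bearing and -1.29 ± 0.42 (adjusted p = 0.0364) against healthy spleen. The first call was lost without tumour replicate 1 (adjusted p = 0.0533), and the second without any of healthy replicates 2 and 3 and tumour replicates 1, 2 and 4 (adjusted p from 0.0502 to 0.147) or with only those groups in the fit (0.0615).

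Lsm2, also of the U6 ring, fell only against tumour-bearing spleen by this test. It had 37.0, 41.2 and 26.4 CPM in healthy spleens, 83.1, 54.1, 51.5 and 58.6 CPM in tumour-bearing spleens and 41.0, 27.5, 42.1 and 46.6 CPM in tumours. The tumour-bearing spleens stood above both other groups, which overlapped. The log2 fold change was -0.62 ± 0.20 (edgeR adjusted p = 0.0265) against tumour-bearing spleen and 0.19 ± 0.23 (adjusted p = 0.579) against healthy spleen. The call was lost without tumour-bearing replicate 1, tumour replicate 1 or tumour replicate 2 (adjusted p from 0.0565 to 0.0846), and against tumour-bearing replicates 3 and 4 alone (0.0658).

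The other 7 LSm genes were not called in any comparison by the fit over all 11 libraries. Of the remaining U6 ring proteins, Lsm3 had a log2 fold change against tumour-bearing spleen of -0.44 ± 0.21, Lsm4 of -0.19 ± 0.17, Lsm5 of 0.31 ± 0.47 and Lsm8 of 0.28 ± 0.14. The ring genes thus had values on both sides of 0. Lsm14a, a protein of cytoplasmic RNA granules, had 0.48 ± 0.22 and Lsm14b -0.21 ± 0.18. Over the 11 LSm genes, 4 log2 fold changes against tumour-bearing spleen were positive and 7 negative, with a median of -0.21.

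**Figure D2:**
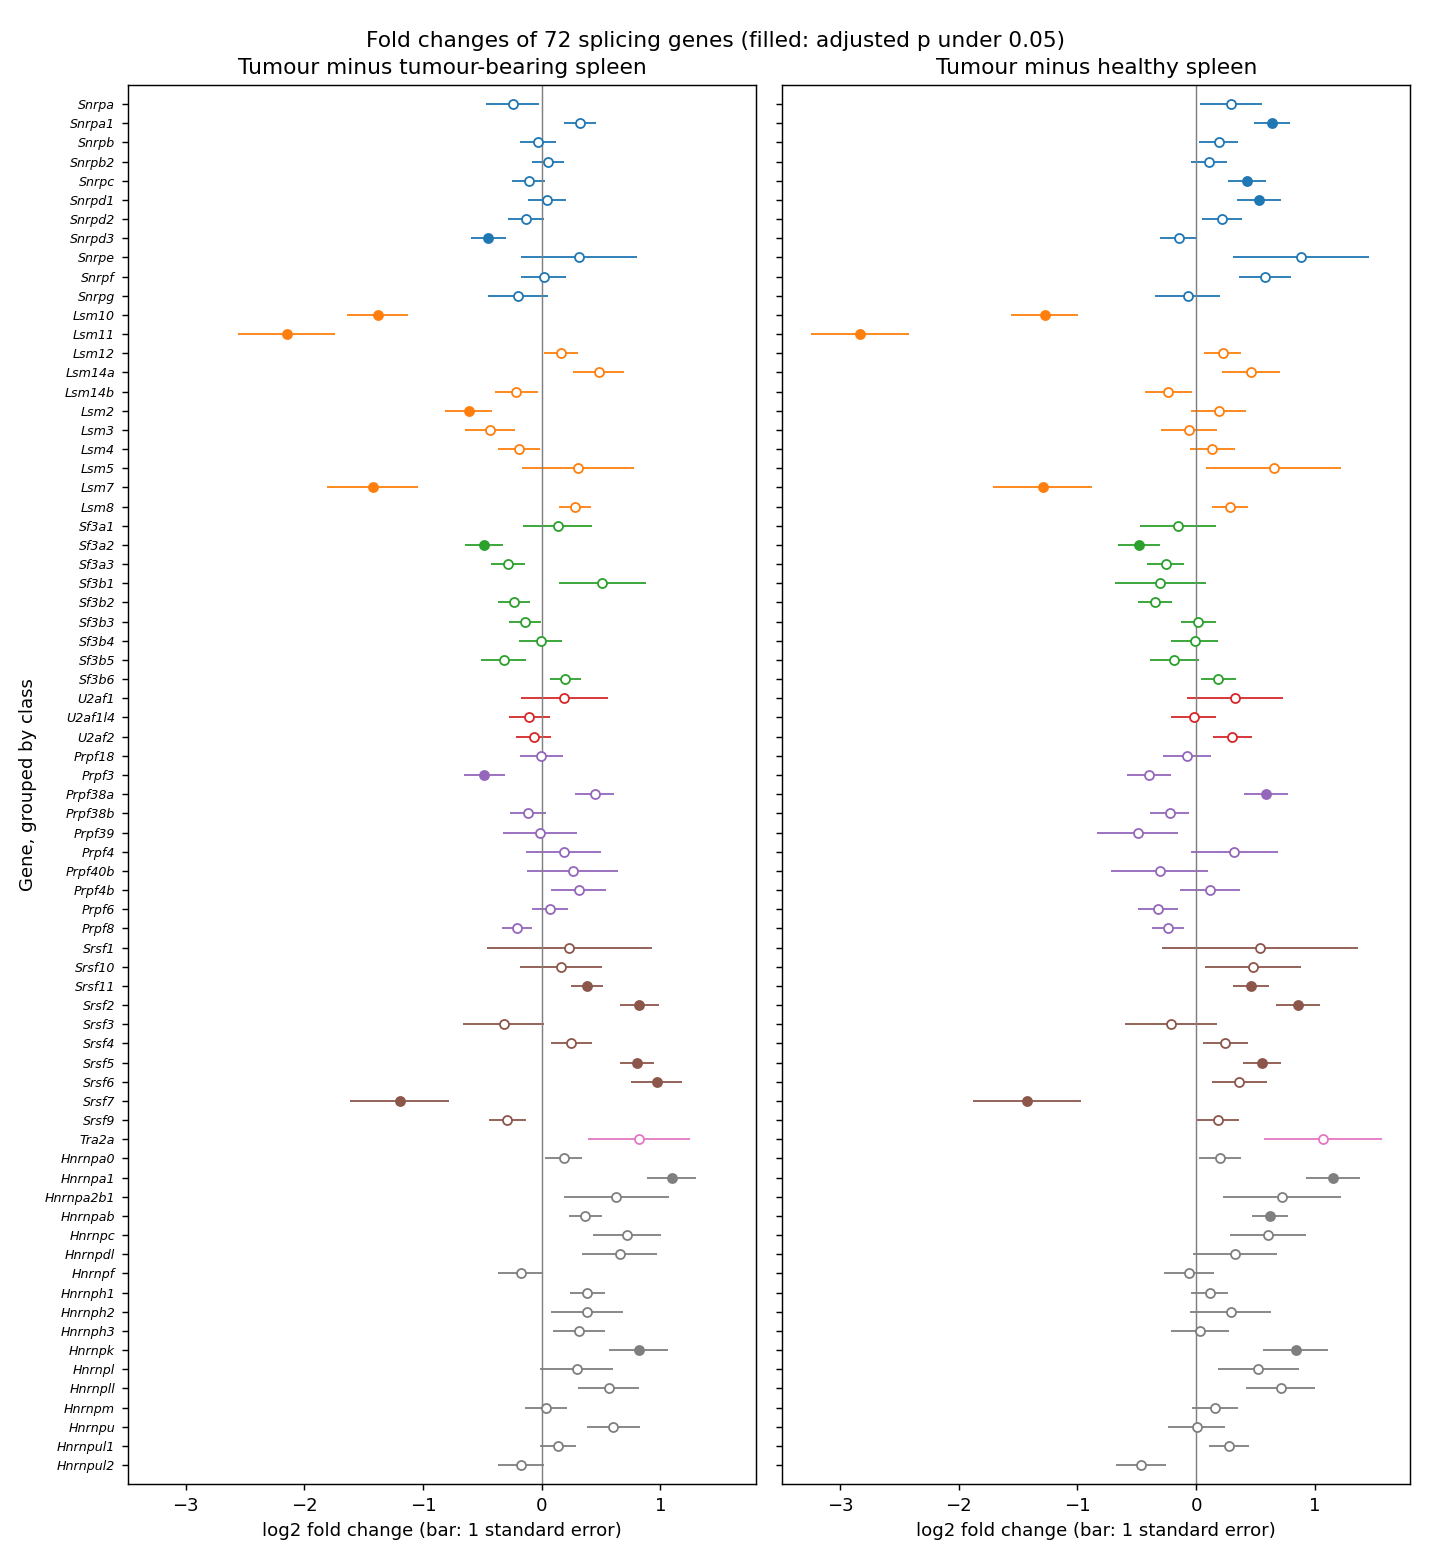
Log2 fold change of each of the 72 tested splicing genes in tumour against tumour-bearing spleen (left) and healthy spleen (right), grouped and coloured by class; bars are 1 standard error and filled points have an adjusted p under 0.05. Filled points to the right of 0 are all SRSF or HNRNP genes in the left panel. The point furthest to the left in both panels is Lsm11, at -2.15 and -2.83.

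SR proteins bind exonic enhancers and recruit the splicing machinery. Of the 10 SRSF genes, 4 rose and 1 fell against tumour-bearing spleen, where 15.8% and 13.2% of all genes did, and 3 rose and 1 fell against healthy spleen, where 16.5% and 14.0% did. The same shares apply to the counts of the other classes. Srsf2 (also known as SC35), a nuclear speckle protein, had 199, 149 and 163 CPM in healthy spleens, 198, 180, 176 and 139 CPM in tumour-bearing spleens and 334, 380, 215 and 304 CPM in tumours. All tumour libraries were above all spleen libraries. This gave a log2 fold change of 0.82 ± 0.16 (edgeR adjusted p = 0.000843) and 0.86 ± 0.18 (adjusted p = 0.00137), and both calls held in each alternative fit.

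Srsf5, an SR protein with paired RNA-recognition motifs, had 573, 691 and 563 CPM in healthy spleens, 529, 530, 529 and 465 CPM in tumour-bearing spleens and 971, 1059, 700 and 861 CPM in tumours. The tumour libraries again lay above all 7 spleen libraries, by a narrow margin over healthy replicate 2. Its fitted log2 fold change was 0.80 ± 0.14 (edgeR adjusted p = 0.000287) against tumour-bearing and 0.56 ± 0.16 (adjusted p = 0.0113) against healthy spleen. Against healthy spleen the call was lost without healthy replicate 3 (adjusted p = 0.0547), and with the GC-length offset the value was 0.11 (adjusted p = 0.621).

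Srsf6, which is close to Srsf5 in sequence, had 38.5, 31.6 and 27.2 CPM in healthy spleens, 16.0, 22.3, 24.2 and 20.3 CPM in tumour-bearing spleens and 55.7, 39.1, 35.5 and 33.3 CPM in tumours. Tumour-bearing spleens were the lowest group, and healthy spleens overlapped the tumours. Against tumour-bearing spleen the log2 fold change was 0.97 ± 0.21 (edgeR adjusted p = 0.00194), a call that held in each alternative fit. Against healthy spleen it was 0.36 ± 0.23 (adjusted p = 0.249).

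Srsf7, an SR protein with a zinc knuckle, went the other way. Its levels were 37.0, 26.2 and 23.9 CPM in healthy spleens, 39.6, 24.0, 19.0 and 14.5 CPM in tumour-bearing spleens and 6.56, 20.3, 13.8 and 2.85 CPM in tumours. The tumour libraries lay below all healthy spleens and overlapped the tumour-bearing ones. On the log2 scale the fold change was -1.20 ± 0.42 (edgeR adjusted p = 0.0449) and -1.43 ± 0.45 (adjusted p = 0.0276). Against tumour-bearing spleen the call was lost without any of tumour-bearing replicates 1, 2 and 3 and tumour replicates 1, 3 and 4 (adjusted p from 0.0509 to 0.134), and against tumour-bearing replicates 3 and 4 alone (-0.73, adjusted p = 0.170). Against healthy spleen it was lost without healthy replicate 1 or 2 or tumour replicate 1 or 4 (adjusted p from 0.0504 to 0.0822).

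Srsf11 rose by less. It had 108, 130 and 93.3 CPM in healthy spleens, 124, 121, 119 and 108 CPM in tumour-bearing spleens and 171, 165, 135 and 145 CPM in tumours, with no overlap between tumour and spleen. The log2 fold change was 0.38 ± 0.13 (edgeR adjusted p = 0.0403) and 0.46 ± 0.15 (adjusted p = 0.0245). Against tumour-bearing spleen the call was lost without any single one of those libraries or of tumour replicates 1, 2 and 4 (adjusted p from 0.0564 to 0.119). Against healthy spleen it was lost without healthy replicate 1 or 3 or tumour replicate 1 or 2 (adjusted p from 0.0526 to 0.148). With the GC-length offset the values were 0.05 and 0.12 (adjusted p = 0.838 and 0.621). Upper-quartile scaling also ended both calls (adjusted p = 0.119 and 0.0682). DESeq2 (0.0602), no filter on low counts (0.0610) and tumour-bearing replicates 1 and 2 alone (0.162) ended the first, and a fit of only those groups ended the second (0.0560).

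The other 5 SRSF genes were not called. Srsf1, the founding SR protein, had 47.8, 5.35 and 7.43 CPM in healthy spleens, 32.8, 28.5, 8.24 and 10.1 CPM in tumour-bearing spleens and 19.7, 39.1, 22.9 and 14.3 CPM in tumours. Its spread within each spleen group followed the split of the spleen libraries. The log2 fold change of 0.23 ± 0.69 against tumour-bearing spleen was smaller than its standard error. Tra2a, an SR-related regulator and the only TRA2 gene listed, had 0.82 ± 0.43 (edgeR adjusted p = 0.193) and 1.07 ± 0.50 (adjusted p = 0.138).

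The hnRNPs coat nascent transcripts and often oppose SR proteins. Of the 17 tested, 2 rose and none fell against tumour-bearing spleen, and 3 rose and none fell against healthy spleen. In each tumour comparison 15 of the 17 log2 fold changes were above 0, where 50.1% and 51.0% of all genes were. With the other scalings, 14 to 15 of 17 were above 0 against tumour-bearing spleen and 13 to 14 against healthy spleen. The medians were 0.38 and 0.29. At an unadjusted p under 0.05, 7 were higher and none lower against tumour-bearing spleen, and 4 were higher and 1 lower against healthy spleen. Of all genes, 39.4% and 41.0% had such a p in either direction, against 41.2% and 29.4% of these. With the GC-length offset, 13 of 17 were above 0 against tumour-bearing spleen (median 0.18, 2 called higher and 1 lower) and 10 of 17 against healthy spleen (median 0.07). Without healthy replicate 1, 12 of 17 were above 0 against healthy spleen (median 0.26), and 6 were called higher and none lower. The share of all genes called in that fit is not given here.

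Hnrnpa1, a splicing repressor that also shuttles mRNA, had 44.7, 69.0 and 70.2 CPM in healthy spleens, 57.2, 61.4, 67.4 and 76.7 CPM in tumour-bearing spleens and 180, 99.99, 101 and 178 CPM in tumours. All tumour libraries were above all spleen libraries, and they formed a higher and a lower pair. This gave a log2 fold change of 1.09 ± 0.20 (edgeR adjusted p = 0.000528) and 1.16 ± 0.23 (adjusted p = 0.000903). With the GC-length offset it was 0.80 and 0.79 (adjusted p = 0.0524 and 0.0799). Hnrnpa1 is known for many near-identical processed copies in the genome, so its count is uncertain.

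Hnrnpk, a KH-domain protein that binds C-rich RNA, had 350, 204 and 183 CPM in healthy spleens, 343, 296, 180 and 166 CPM in tumour-bearing spleens and 397, 507, 423 and 410 CPM in tumours. The tumour libraries were the highest, and the spleens fell into a high and a low set along the split. Its fitted log2 fold change was 0.82 ± 0.25 (edgeR adjusted p = 0.0257) and 0.84 ± 0.28 (adjusted p = 0.0350). Against tumour-bearing replicates 1 and 2 alone it was 0.43, and against replicates 3 and 4 alone 1.29, with an adjusted p of 0.0449 and 3.91e-07. The call against tumour-bearing spleen was lost without tumour-bearing replicate 3 or 4 or tumour replicate 2 or 3 (adjusted p from 0.0613 to 0.0722). The call against healthy spleen was lost without healthy replicate 2 or 3 or any 1 tumour replicate (adjusted p from 0.0548 to 0.134). Upper-quartile scaling ended both calls (adjusted p = 0.0541 and 0.0684).

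Hnrnpab, a homologue of the A and B type hnRNPs, had 210, 314 and 246 CPM in healthy spleens, 306, 311, 330 and 286 CPM in tumour-bearing spleens and 458, 383, 349 and 401 CPM in tumours. No spleen library reached the tumour range. On the log2 scale the fold change was 0.37 ± 0.14 (edgeR adjusted p = 0.0534) against tumour-bearing and 0.62 ± 0.15 (adjusted p = 0.00432) against healthy spleen, and the second call held in each alternative fit. Exons of Hnrnpab and Hnrnpk overlap a gene on the opposite strand (Phykpl and Rmi1), and whether counting used strand is not given in the sources used here. The hnRNPs closest to 0 against tumour-bearing spleen included Hnrnpm, at 0.04 ± 0.17.

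The Snrp genes encode the Sm ring and the specific proteins of the U1 and U2 snRNPs. Of the 11, 1 fell and none rose against tumour-bearing spleen, and 3 rose and none fell against healthy spleen. Snrpa1, the U2 A′ protein, had 84.8, 88.3 and 81.7 CPM in healthy spleens, 111, 117, 95.7 and 101 CPM in tumour-bearing spleens and 156, 109, 132 and 131 CPM in tumours. Healthy spleens were below both other groups without overlap. The log2 fold change was 0.64 ± 0.15 (edgeR adjusted p = 0.00296) against healthy and 0.32 ± 0.13 (adjusted p = 0.0770) against tumour-bearing spleen. The call against healthy spleen held in each alternative fit.

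Snrpd1, of the Sm ring, had 67.8, 88.8 and 116 CPM in healthy spleens, 148, 108, 118 and 143 CPM in tumour-bearing spleens and 144, 103, 148 and 133 CPM in tumours. The 3 groups overlapped. This gave a log2 fold change of 0.53 ± 0.18 (edgeR adjusted p = 0.0342) against healthy spleen and 0.04 ± 0.16 (adjusted p = 0.869) against tumour-bearing spleen, where its sign changed under some alternatives. The call was lost without healthy replicate 1 or 2 or tumour replicate 1, 3 or 4 (adjusted p from 0.0633 to 0.121) and with upper-quartile scaling (0.0760), and with the GC-length offset the value was 0.24 (adjusted p = 0.280).

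Snrpc, a U1 protein that helps to recognise the 5′ splice site, had 75.5, 85.6 and 66.9 CPM in healthy spleens, 132, 113, 96.8 and 103 CPM in tumour-bearing spleens and 99.2, 98.5, 115 and 96.0 CPM in tumours. Healthy spleens were lowest, with no overlap with either other group. Its fitted log2 fold change was 0.43 ± 0.16 (edgeR adjusted p = 0.0474) against healthy spleen, and -0.11 ± 0.14 (adjusted p = 0.591) against tumour-bearing spleen, where its sign also changed under some alternatives. Leaving out any 1 healthy or tumour library ended the call (adjusted p from 0.0508 to 0.202). So did both other scalings, no filter on low counts, DESeq2, a fit of only those groups and the GC-length offset (adjusted p from 0.0551 to 0.125).

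Snrpd3, also of the Sm ring, had 109, 169 and 173 CPM in healthy spleens, 196, 162, 197 and 200 CPM in tumour-bearing spleens and 151, 123, 138 and 138 CPM in tumours. Tumours lay below all tumour-bearing spleens and within the range of healthy spleens. On the log2 scale the fold change was -0.45 ± 0.14 (edgeR adjusted p = 0.0248) against tumour-bearing and -0.15 ± 0.16 (adjusted p = 0.520) against healthy spleen. The call was lost without tumour-bearing replicate 3 or 4 or tumour replicate 2 or 4 (adjusted p from 0.0507 to 0.0730), and against tumour-bearing replicates 1 and 2 alone (0.0780). Gucd1 overlaps Snrpd3 on the opposite strand.

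SF3A and SF3B anchor the U2 snRNP. Of their 9 genes, 1 fell and none rose in each tumour comparison. Sf3a2 had 87.8, 81.3 and 94.1 CPM in healthy spleens, 69.4, 78.7, 107 and 95.5 CPM in tumour-bearing spleens and 57.4, 56.5, 75.2 and 59.0 CPM in tumours. Tumour replicate 3 overlapped the tumour-bearing spleens, and no tumour library reached the healthy range. The log2 fold change was -0.49 ± 0.16 (edgeR adjusted p = 0.0284) and -0.48 ± 0.18 (adjusted p = 0.0454). Against tumour-bearing replicates 1 and 2 alone it was -0.25 (adjusted p = 0.374). The first call was lost without tumour-bearing replicate 3 or 4 or tumour replicate 1, 2 or 4 (adjusted p from 0.0699 to 0.120), and the second without any healthy replicate or tumour replicate 1, 2 or 4 (adjusted p from 0.0527 to 0.159) or with DESeq2 (0.0680). Plekhj1 overlaps Sf3a2 on the opposite strand. Sf3b1, the branch-site clamp, had few counts and values of 0.51 ± 0.37 and -0.30 ± 0.38.

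The PRPF genes include those for proteins of the U4/U6 and U5 snRNPs and of splicing helicase control. Of the 10 tested, Prpf3 alone fell against tumour-bearing spleen and Prpf38a alone rose against healthy spleen. Prpf3, of the U4/U6 snRNP, had 43.1, 63.7 and 60.3 CPM in healthy spleens, 69.4, 59.2, 54.1 and 60.8 CPM in tumour-bearing spleens and 34.4, 47.8, 46.3 and 45.6 CPM in tumours. Tumours lay below all tumour-bearing spleens and overlapped healthy replicate 1. This gave a log2 fold change of -0.48 ± 0.17 (edgeR adjusted p = 0.0381) and -0.40 ± 0.19 (adjusted p = 0.117). The call was lost without tumour-bearing replicate 1, 2 or 4 or tumour replicate 1, 2 or 4 (adjusted p from 0.0504 to 0.134), with DESeq2 (0.0602) and against tumour-bearing replicates 3 and 4 alone (0.0860).

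Prpf38a, needed for activation of the spliceosome, had 38.5, 62.1 and 49.5 CPM in healthy spleens, 62.5, 48.6, 64.3 and 52.8 CPM in tumour-bearing spleens and 87.7, 85.5, 69.1 and 70.4 CPM in tumours. The tumour libraries were above all spleen libraries. Its fitted log2 fold change was 0.59 ± 0.19 (edgeR adjusted p = 0.0220) against healthy and 0.45 ± 0.17 (adjusted p = 0.0502) against tumour-bearing spleen. The call was lost without healthy replicate 1 or 3 or tumour replicate 1 (adjusted p from 0.0621 to 0.0771) and with the GC-length offset (0.0635). Prpf8, the core of the U5 snRNP, was not called, at -0.21 ± 0.13 and -0.24 ± 0.14. None of the 3 U2AF genes was called, and their values against tumour-bearing spleen ran from -0.10 to 0.19.

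Between tumour-bearing and healthy spleen, none of the 72 members was called by edgeR (1.58% of all genes were), and DESeq2 also called none. At an unadjusted p under 0.05 there were 14, or 19.4% of the members, against 11.2% of all genes. The nearest to the threshold were Lsm2, at a log2 fold change of 0.81 ± 0.22 (edgeR adjusted p = 0.0827), and Snrpc, at 0.54 ± 0.16 (adjusted p = 0.0996). All 11 Snrp genes had values above 0, from 0.06 for Snrpb2 to 0.58 for Snrpe, with a median of 0.35, where 49.3% of all genes were above 0. They stayed above 0 with each other scaling, and 10 of 11 did without healthy replicate 1 or tumour-bearing replicate 1 or 3. With the GC-length offset 9 of 11 were above 0. Summed over the 11 genes, the level was 1203 to 1699 CPM in healthy spleens and 1742 to 2005 CPM in tumour-bearing spleens. Proliferation genes moved with this comparison: 6 of 15 tested were called higher and none lower, and the 16 listed summed to 542 to 560 CPM in healthy and 853 to 995 CPM in tumour-bearing spleens. Other lists moved as well. Of 14 MYC-linked growth genes tested, 1 was called higher and none lower. The 15 listed summed to 1730 to 1927 CPM in healthy and 2421 to 2633 CPM in tumour-bearing spleens. Of 20 immediate early and heat shock genes, 6 were called higher and none lower. The part of these lists in the Snrp values was not tested.

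**Figure D3:**
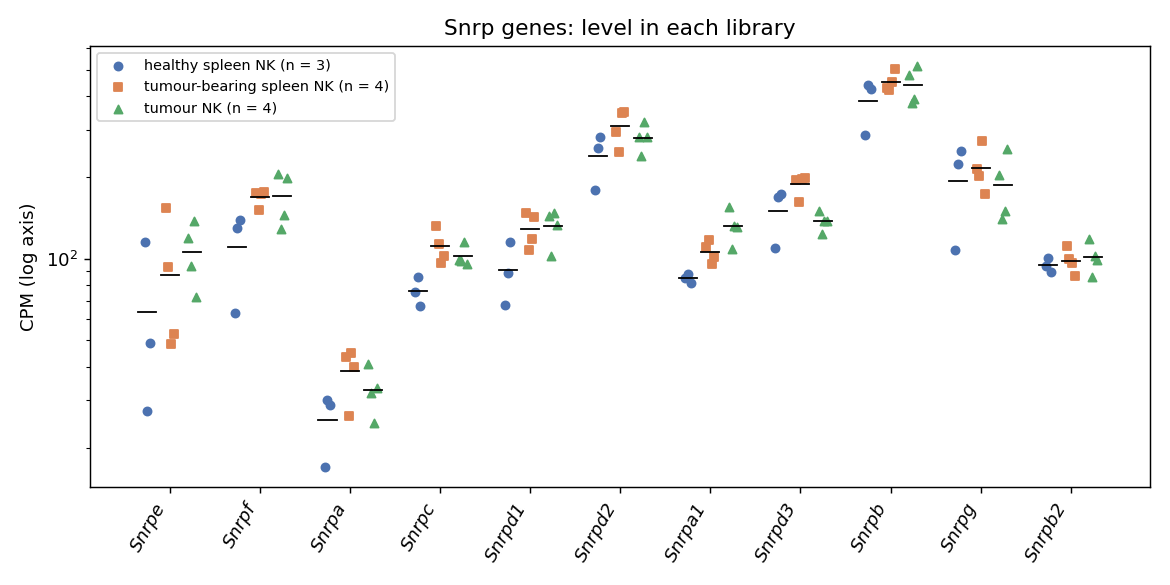
Level in each library (CPM, log axis) of the 11 Snrp genes, ordered by log2 fold change of tumour-bearing over healthy spleen; each point is a library and each bar a group mean. The healthy mean lies below the tumour-bearing mean in all 11 genes, while Snrpe spreads from 27.3 to 155 CPM within the spleens.

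With the side of the spleen split as a block in a fit of the 7 spleen libraries, 9 members were called higher in tumour-bearing spleen and 1 lower, against 5.35% and 2.99% of all genes. The sides were read from a principal component of these same counts, with no batch label behind them, so these calls are not independent of the choice of block. The genes that were higher in this fit were Lsm2 (log2 fold change 0.71), Snrpf (0.65), Snrpd1 (0.52), Srsf9 (0.51), Snrpc (0.47), Lsm3 (0.46), Lsm4 (0.45), Snrpd2 (0.44) and U2af2 (0.41). Most of them encode Sm or LSm ring proteins. Hnrnpu, which also organises chromatin, was lower, at -0.76 (edgeR adjusted p = 0.00667).

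Along the split of the spleen libraries, the 3 libraries on one side were all above the other 4 in 15 of 72 members, and in 8 they were all below, where 15.1% and 12.2% of all genes were. The members above were Hnrnpa0, Hnrnpa2b1, Hnrnpc, Hnrnpdl, Hnrnpk, Lsm14a, Prpf18, Prpf39, Sf3b6, Snrpe, Srsf1, Srsf10, Srsf2, Srsf3 and Tra2a. The difference between the sides was taken in the mean of log2 of CPM plus 1. Srsf1 had the largest, 2.08, followed by Snrpe at 1.44, Hnrnpa2b1 at 1.34 and Tra2a at 1.33. Hnrnpa2b1, a relative of Hnrnpa1, had 322 CPM in healthy replicate 1 but 110 and 116 CPM in the other healthy libraries. In tumour-bearing spleens the first pair of replicates had 277 and 254 CPM, while replicate 3 had 123 and replicate 4 had 97.6 CPM. Its tumour libraries had 280, 391, 238 and 260 CPM, so the tumours overlapped the higher spleen side and lay above the lower one.

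Across the 72 members, the side difference and the GC content of the transcript end had a Spearman rho of -0.47, and across 8340 genes the rho was -0.58. Both are correlations across genes of the same libraries and not independent replicates. Against tumour-bearing replicates 3 and 4 alone, 16 members were called higher, where 22.4% of all genes were, among them Tra2a (1.51), Hnrnpdl (1.38), Hnrnpa2b1 (1.35) and Srsf1 (1.30). In the same fit 11 were called lower, where 18.5% of all genes were, and these included Lsm3 (-0.55), Lsm4 (-0.46), Sf3b2 (-0.37), Sf3b5 (-0.46), Prpf8 (-0.36) and Hnrnpf (-0.44). Against tumour-bearing replicates 1 and 2 alone, 6 were called higher and 7 lower, where 13.8% and 9.04% of all genes were. The replicates were parted by a principal component of these same counts, so these calls are not independent of that choice. Tra2a, Hnrnpdl, Hnrnpa2b1 and Srsf1 were lower on the side of replicates 3 and 4, and none was called against all tumour-bearing spleens.

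**Figure D4:**
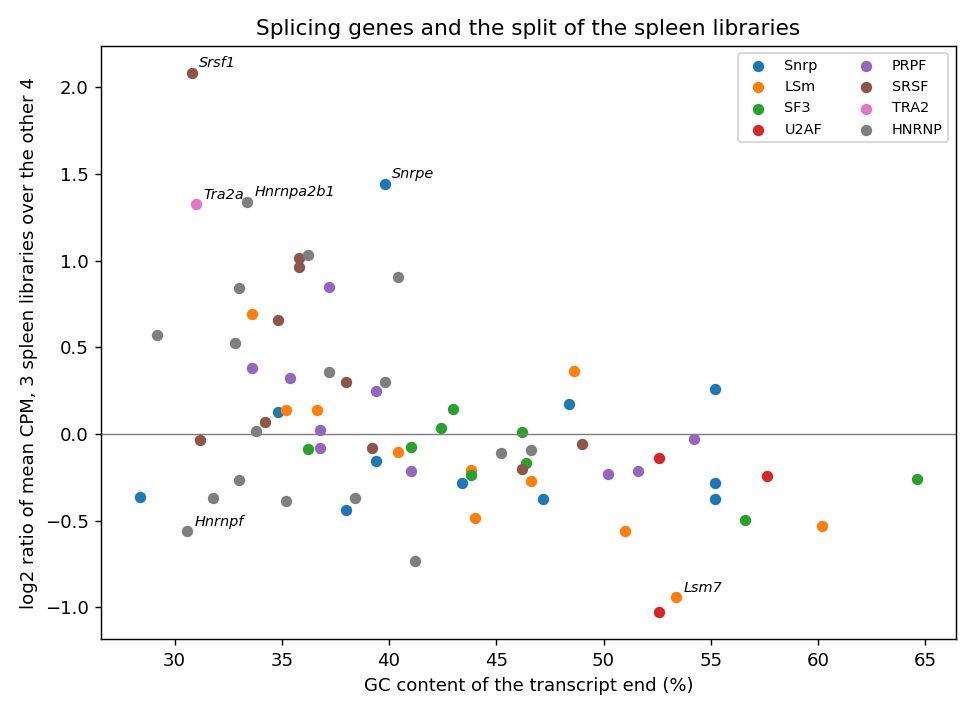
Difference in the mean of log2 of CPM plus 1 between the 3 spleen libraries on one side of the split and the other 4. It is labelled as a log2 ratio on the axis and set against the GC content (%) of the transcript end, for 72 splicing genes coloured by class. Genes with a low GC content tend to lie above 0, with Srsf1 at 2.08, and Hnrnpf is a low-GC gene below 0.

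A list of 111 other splicing and RNA-binding genes outside these families was read beside them, and 21% and 20% of its 100 tested genes were called in the 2 tumour comparisons, below the 29.0% and 30.5% of all genes. In number, 15 rose and 6 fell against tumour-bearing spleen (15.8% and 13.2% of all genes), and 14 rose and 6 fell against healthy spleen (16.5% and 14.0%). Clk1, a kinase that phosphorylates SR proteins, had a log2 fold change of 1.42 ± 0.32 and 1.31 ± 0.36 (edgeR adjusted p = 0.00753 and 0.0191). Isy1, of the active spliceosome, had 1.04 ± 0.12 and 1.43 ± 0.14 (adjusted p = 2.46e-06 and 2.45e-07). Pcbp2, a relative of Hnrnpk, rose by 0.91 and 0.80, Rbm3, a cold-inducible protein, by 0.79 and 0.80, and Sfpq, of paraspeckles, by 0.70 and 0.87. Cirbp, also cold-inducible, rose by 0.73 against tumour-bearing spleen and had 0.08 against healthy spleen (adjusted p = 0.788).

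Gemin4, of the SMN complex, had -1.67 ± 0.30 and -1.34 ± 0.34 (edgeR adjusted p = 0.000299 and 0.00547). Prmt5, which methylates Sm proteins, had -0.74 ± 0.13 against tumour-bearing spleen (adjusted p = 0.000172) and -0.34 ± 0.14 against healthy spleen (adjusted p = 0.0667). Of the 8 snRNP assembly genes tested, 2 (25%) fell and none rose against tumour-bearing spleen, where 13.2% of all genes fell, and 1 (12.5%) fell against healthy spleen, where 14.0% did. The helicase Dhx8 fell in both comparisons, at -0.58 and -0.62, as did Snrnp200, the U5 helicase, at -0.35 and -0.52. Puf60, a U2AF-related factor, had -0.44 in both comparisons. Rbm10 fell against tumour-bearing spleen, at -0.35, and Xab2 and Ddx17 fell against healthy spleen, at -0.54 and -0.50.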

How the data were processed

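Libraries of 3′ mRNA ends from 11 sorted NK cell samples were used; the fibroblast libraries of the series were not used here. The deposited table holds raw read counts per gene, and per the submitters' processing notes bcl2fastq, STAR 2.4.2a and HTSeq were named with genome build mm10. Whether molecular identifiers were used is not given in the sources used here. The authors' table gives tumour replicates 3 and 4 in a joined header cell, and columns were read by position. Members and lists were chosen with earlier results of these data known.

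Counts were fitted over all 11 libraries with edgeR 4.0.16 (limma 3.58.1, R 4.3.3): TMM scaling, the default expression filter, robust quasi-likelihood dispersion, group only, and Benjamini-Hochberg adjustment. CPM used the scaled library sizes. The code was tested on simulated data. Every member may be named. By rule, values in each library were given for called members, up to 8 in each direction and comparison. Members called in 2 or more comparisons were added. Values of Snrpc, Srsf1 and Hnrnpa2b1 in each library were given outside this rule. Other members were named after their values were seen. Of the other splicing genes, up to 5 called in each direction were named. Alternatives were 2 other scalings, no or a 10 CPM filter, DESeq2 1.42.0, only the groups compared and a replicate block. Parts of the spleen split and leaving out each library were also run. A further alternative was an offset for the GC content of the transcript end and the length of the whole transcript (GENCODE M21). Intervals cover counting error only.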

Additional observations from a re-analysis of the deposited data

Results flagged for a closer look

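Within a group of 4 libraries, 5 values of called members stood apart from the other 3 by more than Dixon's critical value of 0.829, out of 38 groups tested. Chance flags about 1 in 20 groups. Prpf3 had 34.4 CPM in tumour replicate 1, against 45.6 to 47.8 CPM in the other tumours. Sf3a2 had 75.2 CPM in tumour replicate 3, against 56.5 to 58.9 CPM, and Snrpc had 115 CPM in the same library, against 96.0 to 99.2 CPM. In tumour-bearing spleens, Snrpd3 had 162 CPM in replicate 2, against 196 to 200 CPM, and Srsf5 had 465 CPM in replicate 4, against 529 to 530 CPM.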

How the results depend on the processing

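Against tumour-bearing spleen, members called higher numbered 6 in the fit reported (15.8% of all genes) and 10 with only the 2 groups compared. They numbered 16 against spleen replicates 3 and 4 alone, where 22.4% of all genes were called higher. They also numbered 16 without healthy replicate 1 and tumour-bearing replicates 1 and 2, an alternative chosen after seeing the data. The share of all genes moves with the setting, so a count without it here is not a result about splicing genes. Leaving out each library gave 4 to 8 higher and 3 to 7 lower. Against healthy spleen, 10 became 6 with upper-quartile scaling and 5 with the GC and length offset, and the 5 lower became 10 with that offset and 9 without those same 3 spleen libraries. Leaving out each library gave 5 to 12 higher and 2 to 5 lower. Between the spleens, the side block gave 9 higher and 1 lower (5.35% and 2.99% of all genes), and leaving out each library gave 0 to 0. The causes were not tested. The labels do not say whether same-numbered tumour and tumour-bearing spleen libraries share an animal. Their deviations had correlations of -0.05, 0.29, 0.0025 and 0.21 for replicates 1 to 4. Tumour replicates 2 and 4 correlated best with the same-numbered spleen library, and replicates 1 and 3 did not. Tumour-bearing and healthy spleens come from different mice, and there the values ran from -0.35 to 0.50. These values do not settle the pairing, and the fit reported used no pairs. The replicate block gave 9 higher and 8 lower against tumour-bearing spleen, 10 and 5 against healthy spleen, and 0 between the spleens. Against tumour-bearing spleen, where neither was called, Snrpc changed sign to 0.034 with the GC and length offset, 0.018 against spleen replicates 3 and 4 alone and 0.0095 without the 3 spleen libraries. Snrpd1 changed sign to -0.057 with upper-quartile scaling, -0.066 with the offset and -0.0028 without the 3 spleen libraries. Leaving out each library moved it between -0.034 and 0.138, and below 0 without tumour-bearing replicate 2 or 3 or tumour replicate 3. Of the members called, 5 of 14 and 5 of 15 kept their call in every alternative. Depth limits the members with few counts, Lsm11 in tumours among them.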
